A study of Mus musculus with 9 samples.

Results

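The genes described are the subunits, caps, assembly chaperones and inhibitor of the mouse proteasome whose names begin with Psm and a letter from a to g. They were taken from the gene-name column of the count tables by that pattern, without the numbered copies of a name, which gave 49 of 42454 names. Of these, 5 encode the subunits induced by interferon (Psmb8, Psmb9, Psmb10, Psme1 and Psme2), and the other 44 were compared with them. The names were taken by pattern and by known role, and the choice was made with earlier results of these data known. The samples were 9 whole tumours of the mouse colorectal carcinoma line MC38, grown in C57BL/6J mice and taken at day 21 after inoculation. The 4 control tumours came from vector-carrying cells (Vec-MC38, genotype WT, called Vec here), and the 5 others from MC38 cells in which CD43 was knocked out (called CD43-KO). The knockout was in the implanted cells, so host cells of both groups kept the gene, and whether the knockout line is a single clone, and the age and sex of the mice, are not given in the labels. The design compares the transcriptomes of the tumour types, and the series title frames this as a question about the anti-tumour immune response.

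The proteasome is the cell's main protease for ubiquitin-tagged proteins. Its core is a barrel of stacked alpha and beta rings, with the cutting sites on Psmb5, Psmb6 and Psmb7, and a regulatory particle made of a base and a lid recognises, unfolds and feeds in substrates. Under interferon gamma, cells make Psmb8, Psmb9 and Psmb10, which take the places of Psmb5, Psmb6 and Psmb7 in newly built cores to form the immunoproteasome, and the paired cap proteins Psme1 and Psme2. The peptides cut this way are a main supply for MHC class I, the molecules through which CD8 T cells inspect tumour cells.

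Of the 49 names, 41 had a RefSeq promoter window on GRCm38.p6, covering 250 bases before to 50 bases after the start of the gene. All windows were searched on both strands for 2 simple patterns: GAAANNGAAA, a core of the interferon response element, and TGACNNNGC, the core of the antioxidant-type element read by NFE2L1. The stretches shown set 2 constitutive catalytic subunits beside an interferon-induced cap gene, and each carries 1 of the patterns, in capitals. They are written 5′ to 3′ along the gene, from base -150 to base -1 before the start for Psmb5 and Psmb6, and around the start for Psme1. For Psmb6 this start is the promoter window's own, which lies after the start of the gene coordinates given below (70525324). The Psmb6 stretch, which ends at 70525356, therefore runs past that coordinate, and its marked pattern lies after it.
Psmb5, chr14:54617996-54618145, minus strand, TGACNNNGC at bases -47 to -39: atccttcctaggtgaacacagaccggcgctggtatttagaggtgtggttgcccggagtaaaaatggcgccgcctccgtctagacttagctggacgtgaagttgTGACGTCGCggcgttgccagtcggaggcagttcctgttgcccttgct
Psmb6, chr11:70525207-70525356, plus strand, TGACNNNGC at bases -9 to -1: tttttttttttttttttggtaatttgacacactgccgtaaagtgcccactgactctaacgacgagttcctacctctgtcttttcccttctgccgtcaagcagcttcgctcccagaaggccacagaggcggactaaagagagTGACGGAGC
Psme1, chr14:55578490-55578519, plus strand, GAAANNGAAA on the opposite strand at bases 10 to 19 after the start: tttcgagctgtgcTTTCGCTTTCccttccc
GAAANNGAAA was found in 5 of the 41 members (12.2%: Psmb3, Psmd4, Psmd9, Psme1 and Psmg4), beside 3.44% of all 32851 promoter windows. Of these, 1 was among the 5 interferon-induced genes (Psme1) and 4 were other members. TGACNNNGC was found in 6 (14.6%: Psmb5, Psmb6, Psmc6, Psmd9, Psmd12 and Psme4), beside 12.4% of windows, and in 0 of the 5 interferon-induced genes. With 5 genes, neither count can be set against the share of all windows. The patterns do not overlap in the stretches shown, and a match describes letters only.

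Total counts lay between 60751738 and 72114385 in Vec libraries and between 44814061 and 62194418 in CD43-KO libraries. The lowest belonged to CD43-KO tumour 3, which stood apart in other ways. Its 5 skeletal muscle markers (Acta1, Ckm, Myh4, Tnnt3 and Mylpf) summed to 959.9 CPM (counts scaled to a fixed library total) against 59.8 to 99.8 in the other 8 tumours, and its 5 fat markers to 521 CPM against 24.3 to 57.8. Its 11 leukocyte markers summed to 8722 CPM, of which Lyz2 gave 7516. The sum was 2280 to 4112 in Vec and 2220 to 5493 in the other CD43-KO tumours. The part of these cells in the results below was not tested, and main results are given without this tumour too where it moves them. Of 7 epithelial markers, 3 had enough counts to test and their sum was 7.87 to 15.9 CPM in all tumours, with Cdx2 at 0 counts and Krt8 and Krt18 near 0. Spn, which encodes CD43, read 41.0, 43.7, 44.6 and 53.8 CPM in Vec and 25.6, 33.6, 31.2, 22.97 and 6.81 CPM in CD43-KO tumours, lower in every knockout tumour (log2 fold change -0.93 ± 0.36, SE, adjusted p = 0.280 by edgeR's quasi-likelihood test). Host leukocytes also express Spn, so its level in whole tumours is not a reading of the implanted cells alone. In bulk RNA, fewer cells of a type and less RNA per cell cannot be told apart.

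No proteasome gene was called different between CD43-KO and Vec tumours by the main test. That test called no gene at all, Spn included, so its outcome does not show that levels were equal. After a filter on low counts 48 of the 49 names were tested, together with 18243 names in all, by edgeR's quasi-likelihood test with Benjamini-Hochberg adjustment at 0.05. It called 0 of the 48, beside 0.00% of all names tested. DESeq2 also called 0 of the 48, beside 3.35% of all names, and limma voom 0, beside 2.72%. At an unadjusted p under 0.05 the main test held 2 members, Psmd4 and Psmd9, beside 15.4% of all names. Both read lower in CD43-KO tumours, beside 7.63% of all names lower and 7.75% higher at that p. There were 0 members whose groups did not overlap, beside 5.59% of all names (2.08% higher and 3.50% lower in CD43-KO tumours). The p-values measure the spread between these tumours, and the labels do not say that each tumour came from a separate mouse.

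The levels leaned slightly towards lower values in the knockout outside the interferon-induced set. The log2 fold change was above 0 for 4 of the 5 interferon-induced genes, with a median of 0.021. It was below 0 for 33 of the 43 other members tested, with a median of -0.083, beside 46.0% of all names below 0 and a median of 0.027 over all names. The split around 0 depended on single tumours and on scaling. Scaled by library totals alone, 28 members stood above 0 and 20 below. The median of the other members was then 0.0029 beside 0.11 for all names, so they still lay below all names. Without Vec tumour 4 the split was 27 above and 21 below, with a median of 0.0007 for the other members beside 0.013 for all names. Without CD43-KO tumour 3 the split was 5 above and 42 below of 47 tested. With both left out, 9 stood above 0 and 39 below, with medians of -0.054 for the interferon-induced genes and -0.061 for the others.

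**Figure D1:**
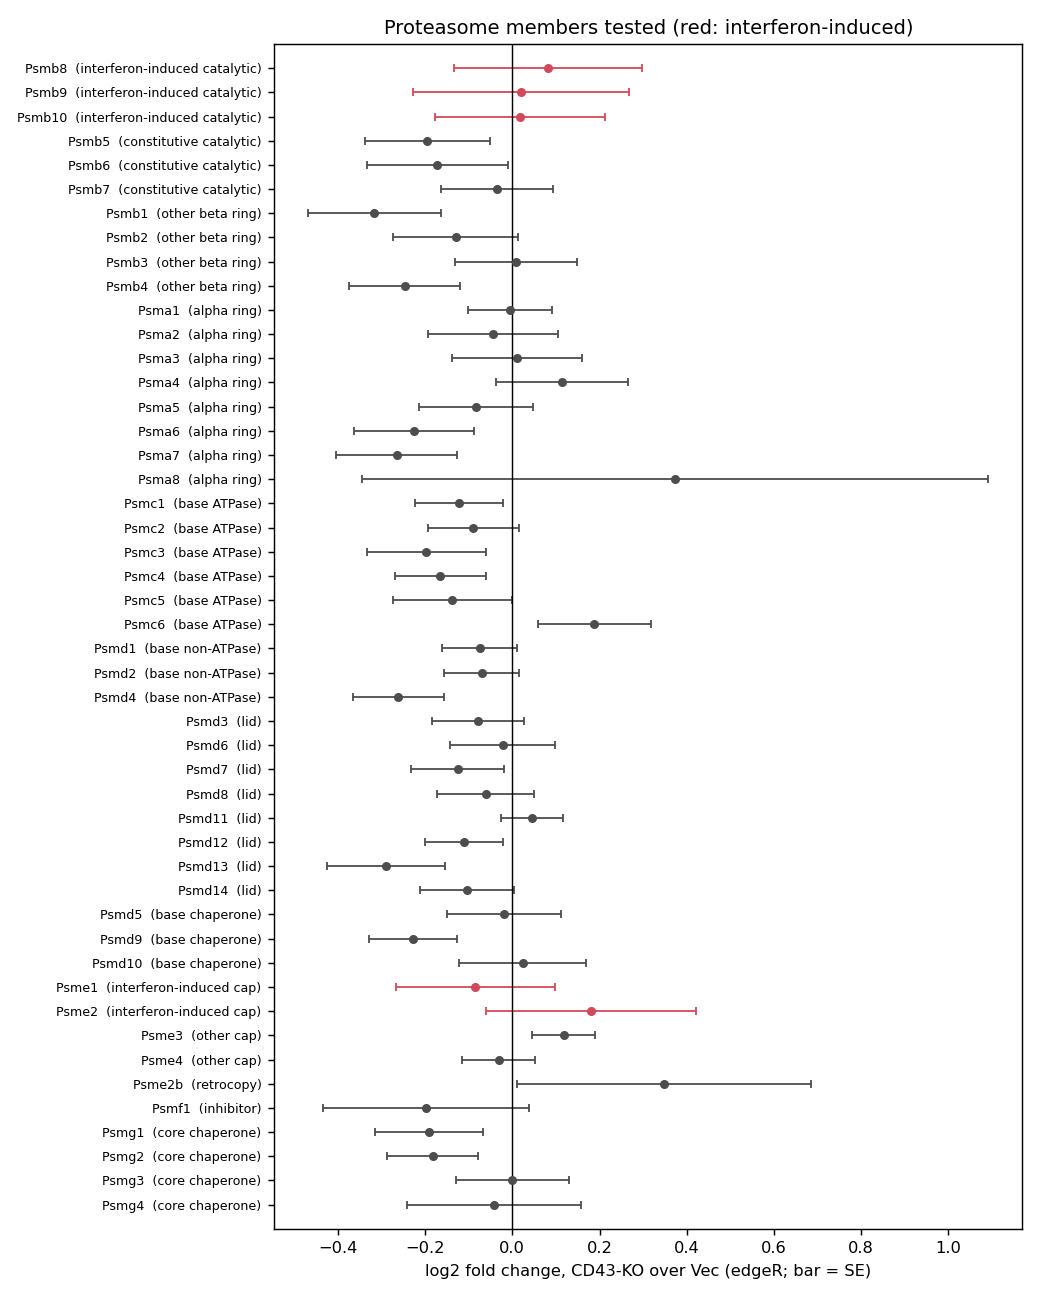
Log2 fold change of CD43-KO over Vec from edgeR for the 48 members tested, by role, with bars of 1 SE and the interferon-induced genes in red. Most points lie within 0.32 of 0, and the widest bar belongs to Psma8, which is under 1 CPM in every tumour.

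Among the interferon-induced catalytic subunits, Psmb8 (chr17:34198195-34201454, GRCm38) provides the chymotrypsin-like site of the immunoproteasome. Its level was 81.6, 86.7, 107 and 116 CPM in Vec tumours 1 to 4 and 92.0, 105, 163, 80.05 and 78.0 CPM in CD43-KO tumours 1 to 5. The groups overlapped fully apart from CD43-KO tumour 3, the highest of all 9, and tumours 4 and 5, the lowest. The means were 97.9 ± 16.3 CPM (SD, n = 4) and 104 ± 34.8 CPM (SD, n = 5), with a log2 fold change of 0.082 ± 0.22 (SE, adjusted p = 0.873, edgeR). Without CD43-KO tumour 3 the fold change was -0.15.

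Psmb9 (chr17:34182030-34187330) lies beside Psmb8 in the MHC region and encodes the subunit that replaces Psmb6. It read 39.5, 47.0, 60.2 and 59.1 CPM in Vec and 44.8, 51.0, 87.6, 37.6 and 40.04 CPM in CD43-KO tumours. The order was like that of Psmb8, with CD43-KO tumour 3 highest and tumour 4 lowest. The log2 fold change was 0.021 ± 0.25 (SE, adjusted p = 0.975, edgeR), and -0.25 without CD43-KO tumour 3. Psmb10 (chr8:105935728-105938392), which replaces Psmb7, read 139.6, 151, 163 and 209.6 CPM in Vec and 145, 177, 244, 149 and 124 CPM in CD43-KO tumours. It differed by 0.018 ± 0.19 on the log2 scale (SE, adjusted p = 0.972, edgeR). For all 3 subunits the difference between groups was far smaller than the spread within them.

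Psme1 and Psme2, neighbours on chromosome 14, form the ring-shaped cap that opens the core without needing ubiquitin. Psme1 (chr14:55578494-55581527) read 209.6, 218, 229 and 306 CPM in Vec and 199, 239, 323, 192 and 182 CPM in CD43-KO tumours. It was the only interferon-induced gene with a fold change below 0 in the main test, at -0.085 ± 0.18 (log2, SE, adjusted p = 0.840, edgeR), and it stood at 0.0016 when libraries were scaled by totals. Psme2 (chr14:55587440-55591101) read 197, 214, 257 and 271 CPM in Vec. In CD43-KO tumours it read 226, 256, 452, 197 and 201 CPM, so that tumour 3 stood far above the others. Its log2 fold change of 0.18 ± 0.24 (SE, adjusted p = 0.732, edgeR) was the highest of the 5 and became -0.10 without that tumour.

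**Figure D2:**
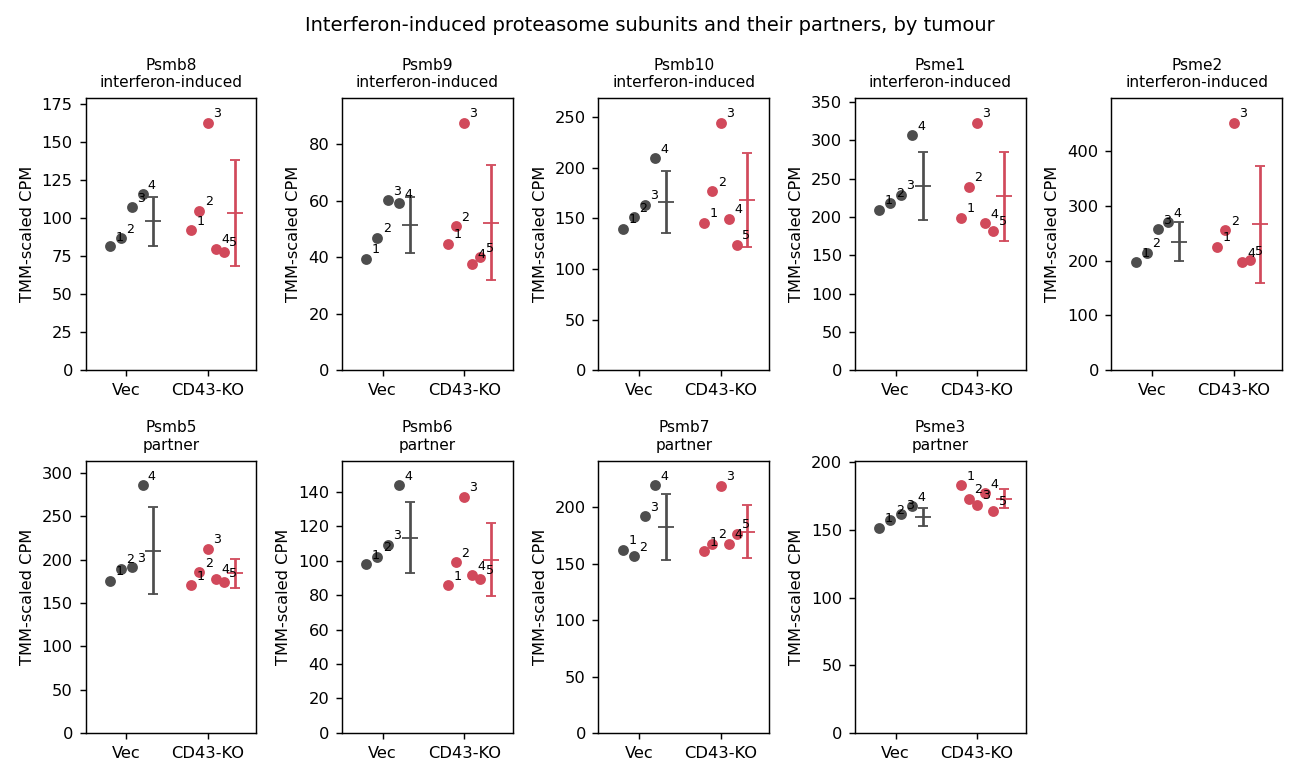
TMM-scaled CPM of the 5 interferon-induced genes (top row) and the 4 genes they were set against in ratios (bottom row) in each tumour. The tumour number is beside each point and the mean ± SD is a bar (Vec n = 4, CD43-KO n = 5). CD43-KO tumour 3 is the highest point in all 5 top panels, and Vec tumour 4 is the highest in the Psmb5, Psmb6 and Psmb7 panels.

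The constitutive catalytic subunits all had fold changes below 0 in the main test, none of them past the threshold. Psmb5 (chr14:54614120-54617995), the constitutive chymotrypsin-like site and target of bortezomib, read 176, 189, 191 and 286 CPM in Vec and 170.4, 185, 213, 178 and 174 CPM in CD43-KO tumours. Vec tumour 4 stood well above the rest. The log2 fold change was -0.19 ± 0.14 (SE, adjusted p = 0.524, edgeR), -0.020 without Vec tumour 4, and -0.073 without that tumour and CD43-KO tumour 3. Psmb6 (chr11:70525324-70527858), the caspase-like site, read 98.1, 102, 109 and 144 CPM in Vec and 85.8, 99.3, 137, 91.8 and 89.2 CPM in CD43-KO tumours (a log2 change of -0.17 ± 0.16, SE, adjusted p = 0.622, edgeR), and its change was -0.046 without Vec tumour 4 and -0.32 without CD43-KO tumour 3. Psmb7 (chr2:38588046-38643952), the trypsin-like site, averaged 183 ± 29.1 CPM in Vec (SD, n = 4) and 178 ± 23.4 CPM in CD43-KO tumours (SD, n = 5). Its fold change of -0.034 turned to 0.054 with library totals.

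Exchange of subunits was followed by the RNA ratio of the incoming to the outgoing gene within each tumour, which is not a reading of assembled proteasomes. Library scaling cannot move this ratio. The genes of a pair can differ in exon length (1.63 kilobases for Psmb8 and 0.899 for Psmb5), and the part of length in the ratios was not tested. The log2 ratio of Psmb8 to Psmb5 was -1.09 ± 0.19 in Vec (SD, n = 4) and -0.88 ± 0.31 in CD43-KO tumours (SD, n = 5), a difference of 0.21 (two-sided exact permutation test, p = 0.302, adjusted p = 0.635 over 5 ratios), which was 0.089 without CD43-KO tumour 3. Per kilobase of exon, Psmb8 made up 20.4, 20.2, 23.7 and 18.3% of the pair in Vec and 23.0, 23.9, 29.7, 19.9 and 19.9% in CD43-KO tumours. By the gene names alone, the constitutive partner was thus the more abundant transcript in every tumour, and CD43-KO tumour 3 had the largest Psmb8 share. Numbered copies of Psmb8 held 99.2, 30.0 and 29.7% of its own counts, and Psmb5 had none. Adding them would raise the Psmb8 share, so the ranking within this pair is uncertain. Psmb9 made up 19.2 to 24.5% of its pair with Psmb6 in Vec and 19.5 to 27.3% in CD43-KO tumours (log2 difference 0.15, exact permutation p = 0.381, adjusted p = 0.635), and the difference was 0.060 without CD43-KO tumour 3. Psmb10 came nearer to parity with Psmb7, at 42.9 to 46.1% in Vec and 38.3 to 49.7% in CD43-KO tumours (log2 difference 0.025, exact permutation p = 0.889, adjusted p = 1). No ratio differed between the groups beyond its spread, and the smallest p the design allows is 0.00794.

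The caps gave the same kind of answer, although Psme1 and Psme2 form a cap of their own and do not take the place of Psme3. Psme1 and Psme2 have 1.11 and 0.976 kilobases of exon, against 2.66 for Psme3. Psme3 (chr11:101316213-101323537) encodes the nuclear cap, which does not need interferon, and it was among the steadiest members, at 152, 158, 162 and 168 CPM in Vec and 183, 173, 169, 177 and 164 CPM in CD43-KO tumours. Of the knockout tumours 4 lay above every Vec tumour, with a log2 fold change of 0.12 ± 0.07 (SE, adjusted p = 0.442, edgeR). Against Psme3, the log2 ratio of Psme1 was 0.58 ± 0.20 in Vec and 0.36 ± 0.36 in CD43-KO tumours (exact permutation p = 0.381, adjusted p = 0.635), a difference of -0.22 that was -0.12 without Vec tumour 4 and -0.36 without CD43-KO tumour 3. The ratio of Psme2 to Psme3 was 0.55 ± 0.16 in Vec and 0.55 ± 0.51 in CD43-KO tumours (exact permutation p = 1), where tumour 3 read 1.42 and the other 4 between 0.15 and 0.56. Psme4, the large single-chain cap, lay between 82.0 and 101 CPM in all tumours.

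Of the structural beta subunits, 3 of 4 had fold changes below 0. Psmb1 read 301, 266, 286 and 407 CPM in Vec and 220.2, 230.4, 326, 247 and 243 CPM in CD43-KO tumours, so only CD43-KO tumour 3 lay within the Vec range. Its log2 fold change was -0.32 ± 0.15 (SE, adjusted p = 0.347, edgeR). Psmb4 showed the same layout, at 312, 315, 336 and 412 CPM in Vec against 269, 283, 365, 269 and 262 CPM in CD43-KO tumours (a log2 change of -0.25 ± 0.13, SE, adjusted p = 0.373, edgeR). Without CD43-KO tumour 3, DESeq2 called Psmb1 and Psmb4 lower (lowest adjusted p = 0.0401), beside 3.74% of all names called lower in that fit. Without the same tumour edgeR called neither (lowest adjusted p of any member 0.129). Without Vec tumour 4, the highest tumour for both genes, the log2 fold change was -0.18 for Psmb1 and -0.16 for Psmb4 (adjusted p = 0.641 and 0.644, edgeR).

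The alpha ring, which gates the entrance of the core, had 3 of 8 members above 0 and 5 below. Psma7 was the most abundant member per kilobase, at 478 CPM per kilobase in Vec and 398 in CD43-KO tumours (a log2 change of of the level -0.26 ± 0.14, SE, adjusted p = 0.378, edgeR). Psma4 leaned the other way, with 153, 154, 202 and 174 CPM in Vec and 168, 166, 253, 157 and 179.7 CPM in CD43-KO tumours (a log2 change of 0.11 ± 0.15, SE, adjusted p = 0.731, edgeR), and read -0.032 without CD43-KO tumour 3. Psma8, a subunit made in testis, had 0.085 to 0.813 CPM. Psmb11, the thymus-specific catalytic subunit, was left out by the filter on low counts, with 6, 0, 2 and 0 counts in Vec and 0 counts in each CD43-KO tumour.

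Of the 17 regulatory particle genes, 15 had fold changes below 0, with a median of -0.10. Psmd4, the ubiquitin receptor of the base, had the smallest p of all members. It read 196, 158, 179 and 222 CPM in Vec and 143, 158, 161, 168 and 156 CPM in CD43-KO tumours, with a log2 fold change of -0.26 ± 0.10 (SE, unadjusted p = 0.0295, adjusted p = 0.286, edgeR). The ranges touched, since Vec tumour 2 stood within the knockout values. Psmd13, a lid subunit, averaged 180.2 ± 37.2 CPM in Vec (SD, n = 4) and 147 ± 15.5 CPM in CD43-KO tumours (SD, n = 5), and its log2 fold change was -0.29 ± 0.14 (SE, adjusted p = 0.336, edgeR). Among the 6 ATPases of the base, 5 had values below 0 and Psmc6 above it. Psmc6 read 166, 154, 218 and 145 CPM in Vec and 197, 179, 223, 173 and 200.04 CPM in CD43-KO tumours (a log2 change of 0.19 ± 0.13, SE, adjusted p = 0.495, edgeR). It was the one subunit of the particle that was lowest in Vec tumour 4, where 15 of the 17 reached their highest level. Psmd11, a lid scaffold, varied least, from 130.04 to 145 CPM.

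Per kilobase of exon, the chaperones of the core lay between 11.9 and 75.4 CPM in Vec and those of the base between 12.5 and 20.4 CPM, against 64.0 to 478 CPM for the 14 constitutive core subunits (without Psma8 and Psmb11) and 46.0 to 144 CPM for the regulatory particle. Psmd9, a chaperone of the base, read 46.5, 46.4, 47.7 and 55.6 CPM in Vec and 43.1, 38.7, 48.8, 38.3 and 40.5 CPM in CD43-KO tumours, with only knockout tumour 3 inside the Vec range (log2 fold change -0.23 ± 0.10, SE, unadjusted p = 0.0462, adjusted p = 0.319, edgeR). The core chaperones Psmg1 to Psmg4 had 3 of 4 values below 0 and a median of -0.11. Psmf1, an inhibitor of the core, ranged from 17.4 to 38.4 CPM and overlapped between groups. Psme2b, an intronless copy of Psme2, was low, at 4.04, 4.71, 2.93 and 1.68 CPM in Vec and 4.997, 5.18, 2.09, 3.93 and 5.05 CPM in CD43-KO tumours. Its log2 fold change was 0.35 ± 0.34 (SE, adjusted p = 0.633, edgeR), and some of its reads may belong to Psme2. Its lowest values were in Vec tumour 4 and CD43-KO tumour 3, the tumours in which Psme2 was highest within each group.

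The values of 5 members are uncertain because the tables list further numbered names for them. Summed counts of a copy were 101% of the gene's own for Psmb6, 97.2% for Psmd10 and 98.8% for Psmg1. Psmb8 had copies at 99.2, 30.0 and 29.7%, and Psmb9 at 93.6, 27.1 and 26.9%. Adding the copies to the gene left every member uncalled, with a median log2 fold change of 0.029 for the interferon-induced genes. The levels and shares per kilobase given above are without the copies.

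The members varied from tumour to tumour, and much of that variation came from 2 tumours. The highest tumour exceeded the lowest 2.09-fold for the median interferon-induced gene (1.77- to 2.33-fold), beside 1.64-fold for the 14 constitutive core subunits and 1.42-fold for the regulatory particle. Without CD43-KO tumour 3 these medians were 1.6002-, 1.53- and 1.42-fold. Single members outside these classes ranged more widely, such as Psma8 (9.55-fold), Psme2b (3.08-fold) and Psmf1 (2.21-fold). The SD of log2 CPM was larger in CD43-KO than in Vec tumours for 5 of 5 interferon-induced genes (median 0.43 against 0.25), for 7 of 14 core subunits and for 1 of 17 regulatory particle subunits. Without CD43-KO tumour 3 it was larger for 0 of 5, 0 of 14 and 0 of 17, and the median of the interferon-induced genes in the other 4 knockout tumours was 0.19, so the wider spread rested on that tumour. Over all names tested the medians were 0.27 in CD43-KO and 0.24 in Vec tumours. CD43-KO tumour 3 held the highest value of 5 of 5 interferon-induced genes and of 11 of the 43 others, and Vec tumour 4 held it for 27 of the 43 others and for 0 of the 5.

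Relative to the Vec mean on the log2 scale, the median interferon-induced gene stood at 0.75 in CD43-KO tumour 3, where the median core subunit stood at 0.25 and the median regulatory particle subunit at -0.0031. In Vec tumour 4 the same classes stood together, at 0.26, 0.28 and 0.27. CD43-KO tumours 1, 4 and 5 had all 3 classes below 0, and tumour 2 had the interferon-induced genes at 0.11 with the core at -0.14. Vec tumour 3 had the interferon-induced genes at 0.14 with the core at -0.029 and the regulatory particle at -0.065, so smaller gaps between the classes occurred in both groups. The gap in CD43-KO tumour 3 was the widest of the 9.

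**Figure D3:**
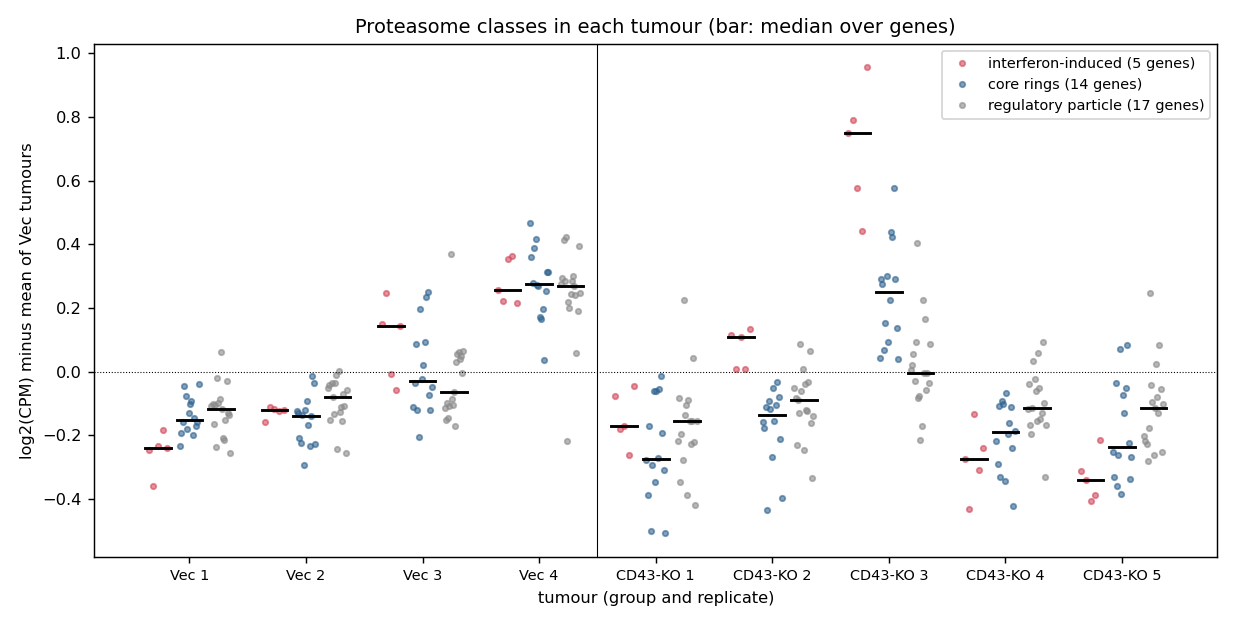
Log2 CPM minus the mean of the 4 Vec tumours for each gene (points) in each tumour, by class, with the class median as a bar. In CD43-KO tumour 3 the bars are spread from -0.0031 to 0.75, and in Vec tumour 4 they lie between 0.26 and 0.28.

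Over all names, levels in both of these tumours moved with transcript length. Against the mean of the other knockout tumours, CD43-KO tumour 3 read higher by a median log2 of 0.53 for all names with under 1 kilobase of exon, by 0.26 at 1 to 2 kilobases and by 0.0082 at 2 to 4 kilobases, and it read -0.19 above 4 kilobases. The members in the same classes (8, 24, 14 and 2 genes) stood at 0.38, 0.34, 0.27 and -0.12. For Vec tumour 4 against the other Vec tumours the same medians were 0.34, 0.23, 0.046 and -0.19 for all names. For the members they were 0.41, 0.36, 0.26 and 0.084. Across the 43 other members, Pearson's r of the difference with log2 exon length was -0.16 in CD43-KO tumour 3 and -0.10 in Vec tumour 4. The 43 include genes of low counts with extreme differences, and r was not computed without them. Psma8 stood at 2.36 in CD43-KO tumour 3 and -0.35 in Vec tumour 4, and Psme2b at -1.18 and -1.17. The 5 interferon-induced genes, with 0.976 to 1.63 kilobases of exon, stood at 0.68 to 1.05 in CD43-KO tumour 3 (median 0.89) and at 0.29 to 0.49 in Vec tumour 4 (median 0.34). The part of transcript length in the members' values was not tested.

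Across the 9 tumours the 5 interferon-induced genes were set against Ptprc, the pan-leukocyte gene for CD45. It read 42.7, 50.6, 61.7 and 35.9 CPM in Vec and 85.3, 108, 148, 37.1 and 64.5 CPM in CD43-KO tumours, so that knockout tumours 1 to 3 were the highest. Pearson's r with Ptprc was 0.67 for Psme2 (permutation p = 0.0363, adjusted p = 0.0725 over the 10 relations computed, of which 5 are reported) with Spearman's rho = 0.38 (permutation p = 0.312). Psmb8 gave r = 0.60 (permutation p = 0.0823, adjusted p = 0.118) and rho = 0.28 (permutation p = 0.463), and Psmb9 r = 0.58 (permutation p = 0.101, adjusted p = 0.126) and rho = 0.42 (permutation p = 0.2696). Psmb10 gave r = 0.40 (permutation p = 0.287, adjusted p = 0.319) and rho = 0.18 (permutation p = 0.644), and Psme1 r = 0.31 (permutation p = 0.410, adjusted p = 0.410) and rho = 0.22 (permutation p = 0.581). No relation passed the threshold over all 9 tumours. Without the 2 tumours farthest from the median of Ptprc (CD43-KO tumours 2 and 3), r lay between -0.48 and 0.019. Without CD43-KO tumour 3 alone r lay between -0.19 and 0.26, and without tumour 2 alone between 0.31 and 0.71. The positive values thus rested mainly on CD43-KO tumour 3. Without Vec tumour 4 the 5 coefficients lay between 0.73 and 0.83 and all passed, with adjusted permutation p from 0.0148 to 0.0345. That was 1 of 9 runs that each left out 1 tumour, with p adjusted within the run only. It kept CD43-KO tumour 3, and r without both tumours was not computed. The tumours shared their libraries and depth across these relations, and groups of 4 and 5 are too small for a correlation within a group.

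As a description over the same 9 tumours, the 5 genes correlated with each other at r of 0.87 to 0.99 (median 0.93 over 10 pairs). Correlations of this kind were not computed among the other members, nor with single tumours left out. Whether the high values were particular to these genes, or rested on single tumours, was therefore not tested. The other 43 members had a median r with Ptprc of -0.15, from -0.61 to 0.71, and 8 of them reached the lowest value of the interferon-induced genes. The 14 core subunits had a median r of 0.13 and the 17 regulatory particle subunits -0.23, with Psmc6 the highest at 0.71.

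**Figure D4:**
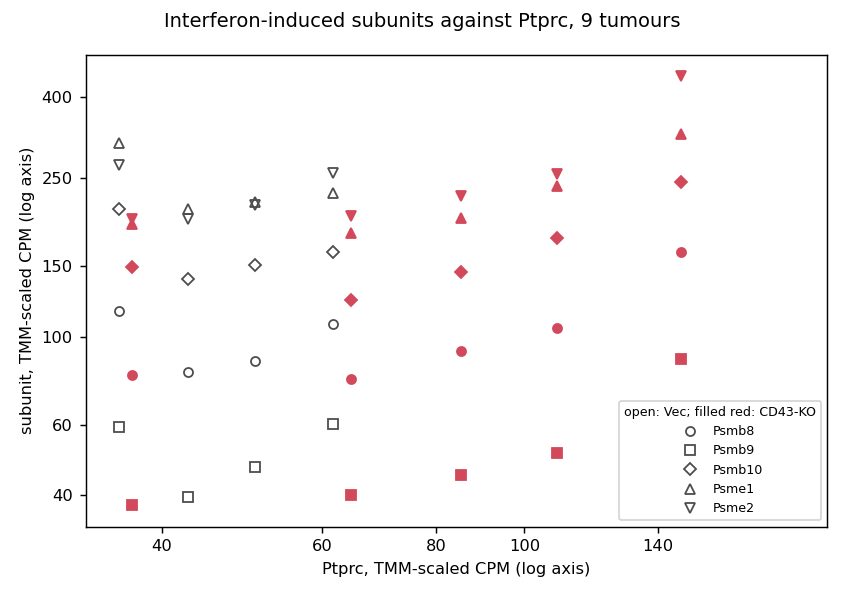
TMM-scaled CPM of the 5 interferon-induced genes against Ptprc in 9 tumours on log axes, with open symbols for Vec and filled symbols for CD43-KO. The rise of each series (r from 0.31 to 0.67) rests on the CD43-KO tumours at the right edge, and Vec tumour 4 at the left edge lies above that rise.

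Other genes of the pathway were read from lists of known function. None of their genes passed edgeR's test. Of 21 proteasome genes named outside the pattern, 18 were listed, 8 with fold changes above 0 and 10 below. Pomp, the chaperone that matures the core and is needed for immunoproteasome assembly, averaged 116.8 ± 15.7 CPM in Vec (SD, n = 4) and 122 ± 33.1 CPM in CD43-KO tumours (SD, n = 5), where tumour 3 read 181 CPM. Nfe2l1, the transcription factor that raises proteasome genes when proteasomes fail, averaged 268 ± 31.4 and 276 ± 27.4 CPM. DESeq2 and limma voom each called 2 genes of this list, Zfand5 and Ngly1, which are named here because of their values. Zfand5, a zinc finger protein that stimulates the proteasome, read 117, 112, 109 and 112 CPM in Vec and 95.1, 81.4, 86.8, 92.1 and 86.7 CPM in CD43-KO tumours (a log2 change of -0.35 ± 0.074, SE, adjusted p = 0.147 by edgeR, 0.000715 by DESeq2 and 0.0340 by limma voom). Ngly1, the deglycosylase that activates Nfe2l1 protein, read 24.9, 25.4, 25.2 and 26.9 CPM in Vec and 20.6, 19.1, 23.4, 18.1 and 19.6 CPM in CD43-KO tumours (a log2 change of -0.34 ± 0.094, SE, adjusted p = 0.196 by edgeR, 0.0300 by DESeq2 and 0.0375 by limma voom). In both genes every knockout tumour lay below every Vec tumour, as did 3.50% of all names, and DESeq2 called 3.35% and limma voom 2.72% of all names.

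The neighbours of the immunoproteasome in antigen presentation were also uncalled by edgeR. Of 11 genes for class I loading, 7 had fold changes above 0 and 4 below, with a median of 0.064, and without CD43-KO tumour 3 the split was 3 above and 8 below with a median of -0.049. Tap1, the peptide transporter gene next to Psmb9, averaged 95.5 ± 12.5 CPM in Vec (SD, n = 4) and 99.96 ± 18.4 CPM in CD43-KO tumours (SD, n = 5). Of 13 genes of interferon gamma signalling, 11 stood above 0 and 2 below, with a median of 0.33, which was 0.11 without CD43-KO tumour 3. Irf1, a transcription factor that acts on Psmb9 and Tap1, averaged 246 ± 29.1 CPM in Vec (SD, n = 4) and 303 ± 82.2 CPM in CD43-KO tumours (SD, n = 5), with a log2 fold change of 0.30 ± 0.18 (SE, adjusted p = 0.440, edgeR). Nlrc5, the transactivator of class I genes, read 90.4, 83.3, 96.4 and 51.2 CPM in Vec and 109, 114, 116, 113 and 98.3 CPM in CD43-KO tumours. Its groups did not overlap, with a log2 fold change of 0.46 ± 0.16 (SE, adjusted p = 0.262, edgeR), beside 2.08% of all names that were higher without overlap. The leukocyte list stood above 0 for 11 of 11 genes with a median of 0.77, and of 0.47 without CD43-KO tumour 3. Its summed level in CD43-KO tumour 4 (2220 CPM, of which Lyz2 gave 1776) was below every Vec tumour, while Ptprc at 37.1 CPM was above Vec tumour 4 (35.9 CPM). From this list edgeR called 0 genes, limma voom 0 and DESeq2 1 (Itgam, adjusted p = 0.0285), beside 3.35% of all names by DESeq2.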

How the data were processed

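RNA of 9 whole tumours (4 Vec, 5 CD43-KO) had been extracted with TRIzol and sequenced from NEBNext Ultra libraries, per the labels' protocols. The authors deposited whole-number counts per gene name, 1 table per tumour, with no scaling. GRCm38, DESeq2, HISAT2 2.1.0 and StringTie 1.3.5 appear, without roles, in the submitters' processing notes. How reads were counted, with which annotation and strand setting, is not given in the sources used here. Without strand, a gene and its antisense partner cannot be told apart. The 26 names turned into dates were left without a gene.

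The main test was run in edgeR 4.0.16 under R 4.3.3 (filterByExpr with minimum count 10 and total 15, TMM factors, robust quasi-likelihood fit, group as the only term), with DESeq2 1.42.0 and limma 3.58.1 as alternatives. CPM are TMM-scaled, and levels per kilobase use union exon length in GENCODE M21. Ratios used counts with 0.5 added. Group ratios and correlations of log2 CPM (prior count 2) were tested by exact permutation, two-sided. Standard errors are the log2 fold change over the square root of F. The fit was tested on simulated data. Over 36 pairs of libraries, chi-square per degree of freedom was at least 32.9, so no library was a repeat. Coordinates are RefSeq's on GRCm38.p6.

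The members and lists were chosen with earlier results of these data known. Named genes were the interferon-induced genes and partners, the 5 members with the smallest p in each direction, members called or filtered out, and Pomp, Nfe2l1, Irf1, Nlrc5, Tap1, Ptprc and Spn, and 1 further gene with its relations is not reported here. Alternatives were other scalings, filters and models, leaving out each tumour and, chosen after seeing the data, summing copy names, DESeq2 without each tumour, and leaving out Vec tumour 4 with CD43-KO tumour 3.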

Additional observations from a re-analysis of the deposited data

Results flagged for a closer look

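Within each group every member's level, and each ratio of genes, was searched for a tumour whose gap to its nearest neighbour was large against the range of the group. Of 106 such groups 21 stood out, where chance gives about 1 in 20, and members are not independent of each other. CD43-KO tumour 3 was the highest in 15 of them and Vec tumour 4 in 6, with 0 in any other tumour.

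CD43-KO tumour 3 stood above the next knockout tumour for 2 interferon-induced genes, Psme2 (452 against 256 CPM) and Psmb9 (87.6 against 51.0 CPM). In the beta ring it did so for Psmb6 (137 against 99.3 CPM), Psmb7 (219 against 177 CPM), Psmb1 (326 against 247 CPM) and Psmb4 (365 against 283 CPM). In the alpha ring it did so for Psma1 (218 against 179.9 CPM), Psma2 (251 against 169.7 CPM), Psma3 (276 against 199 CPM), Psma4 (253 against 179.7 CPM) and Psma5 (204 against 158 CPM). Outside the core it did so for Psmd14, the deubiquitinase of the lid (137 against 121 CPM), and for the chaperones Psmd10 (25.8 against 17.8 CPM), Psmg3 (44.2 against 34.5 CPM) and Psmg4 (61.1 against 37.6 CPM). This tumour also had the lowest depth and the highest muscle, fat and leukocyte marker sums, whose part was not tested.

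Vec tumour 4 stood above the next Vec tumour for Psmb5 (286 against 191 CPM), the ATPases Psmc1 (192 against 153 CPM) and Psmc3 (287 against 202 CPM), and the chaperones Psmd9 (55.6 against 47.7 CPM) and Psmg1 (15.3 against 11.6 CPM). Its log2 ratio of Psme1 to Psme3 was 0.87 against 0.50 in the next.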

How the results depend on the processing

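The count of members called stayed at 0 in each direction under every edgeR setting, DESeq2 and limma voom on all tumours. It moved only when DESeq2 was run without CD43-KO tumour 3, which called 2 lower (Psmb1 and Psmb4). No paired analysis was possible because no number in the labels is shared by a Vec and a CD43-KO tumour, and the numbers used here only follow the order of deposition and link no tumours across the groups. With limma voom, Psmb9 read -0.034, Psmb10 -0.0027 and Psmb7 0.0087 (log2), and with library totals Psme1 read 0.0016 and Psmb7 0.054. Without both Vec tumour 4 and CD43-KO tumour 3, Psmb8 read -0.054, Psmb9 -0.18, Psmb10 -0.028, Psme2 -0.025 and Psma4 -0.021.

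Leaving out 1 tumour at a time, log2 fold changes ranged from -0.15 to 0.17 for Psmb8, -0.25 to 0.12 for Psmb9, -0.16 to 0.14 for Psmb10, -0.25 to 0.044 for Psme1, -0.10 to 0.27 for Psme2, -0.29 to -0.020 for Psmb5, -0.32 to -0.046 for Psmb6, -0.13 to 0.058 for Psmb7 and -0.032 to 0.19 for Psma4. The median ranged from -0.16 to 0.14 for the interferon-induced genes and from -0.16 to 0.0007 for the others. Log2 ratio differences ranged from 0.089 to 0.30 for Psmb8 to Psmb5, 0.060 to 0.24 for Psmb9 to Psmb6, -0.36 to -0.12 for Psme1 to Psme3, -0.044 to 0.12 for Psmb10 to Psmb7 and -0.22 to 0.098 for Psme2 to Psme3. Pearson's r with Ptprc ranged from 0.17 to 0.82 for Psmb8, 0.15 to 0.77 for Psmb9, -0.12 to 0.73 for Psmb10, -0.19 to 0.73 for Psme1 and 0.26 to 0.83 for Psme2. The upper ends came without Vec tumour 4, where all 5 passed the threshold with p adjusted within that run only. The lower ends came without CD43-KO tumour 3. The causes of these changes were not tested.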
